A study of Mus musculus and Rattus norvegicus with 6 samples.

Results

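The response of leptin-deficient rat liver to a single leptin injection was read from 2 of the 6 arrays in the series, 1 after leptin and 1 after saline. The comparison is defined by the sample titles, and no measured value was used to choose it. The rats were males of 20 weeks on an F344/NSlc background, and liver was taken 6 h after an intraperitoneal injection of recombinant murine leptin or of saline. The stated purpose of that time was to catch early gene responses, ahead of any change in feeding or weight. A further rat array, from saline-injected wild-type (WT) littermates of the same age and sex, gives the level without the mutation. A mouse counterpart is set beside the rat values at the end. It is liver of Lepob/Lepob mice of 20 weeks on C57/BL6J, 6 h after leptin or saline.

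The labels of the rats conflict. Titles and the genotype field read Lepmyo/Lepmkyo, the source field reads Lepob/Lepob, and the descriptions read Lepmkyo/Lepmkyo, which is used here. The labels do not say whether an array carried RNA of 1 rat or of a pool, and the leptin dose, written as 1 microg/mg, is not interpreted. With 1 array per group there is no spread between animals, no test and no p-value. "Higher" and "lower" therefore compare the signals of 2 arrays, and every value below is a single measurement.

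Leptin is a hormone of adipose tissue that reports the body's fat store to the brain. Its long receptor form, LEPR, activates the kinase JAK2 and the transcription factor STAT3, and SOCS3 shuts the signal off again. Hepatocytes carry mainly short receptor forms, so liver genes are reached both directly and through the brain, sympathetic nerves, insulin and other hormones. Leptin-deficient animals overeat, and their livers store triglyceride and keep the genes of fat synthesis high.

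Of 31042 probe sets on the rat array, 20826 carried exactly 1 gene symbol. The signal is the summary brightness of a probe set on a linear scale. Signals under 97.0, the median of all rat values, were raised to that floor before a ratio was taken, and a ratio against an array under the floor is given as "at least". A gene was read from its brightest probe set, and 9707 genes reached the floor on at least 1 of the 2 arrays. The 2 arrays were close, and their log2 signals had a correlation of 0.988 over 14104 probe sets. The trimmed mean signal was 496.9 on both, and the median was 93.6 after leptin and 97.6 after saline. All 17 hepatocyte markers on the array were measured, with albumin (Alb) at 40374.1 after leptin, 37062.3 after saline and 42677.8 in WT liver.

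Few genes differed by much after leptin. At 2-fold, 24 genes (0.247%) were higher and 26 (0.268%) were lower. At 1.5-fold, 204 (2.1%) were higher and 253 (2.61%) were lower. The median log2 ratio of all genes was 0.011, and their standard deviation was 0.279. The balance of the 1.5-fold genes depended on scaling: with the arrays centred on their median signal, 286 were higher and 194 lower, and the median of all genes was 0.071. At 2-fold that centring gave 30 higher and 19 lower. Dim genes made up most of these counts, as shown by dividing the genes into 4 equal groups by mean signal. In the dimmest group the log2 ratios had a standard deviation of 0.352, and 98 and 143 genes were 1.5-fold higher and lower. In the brightest group, from a mean signal of 1571.8 upward, it was 0.19, and the counts were 14 and 11. These bright genes are the least noisy part of the comparison.

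**Figure D1:**
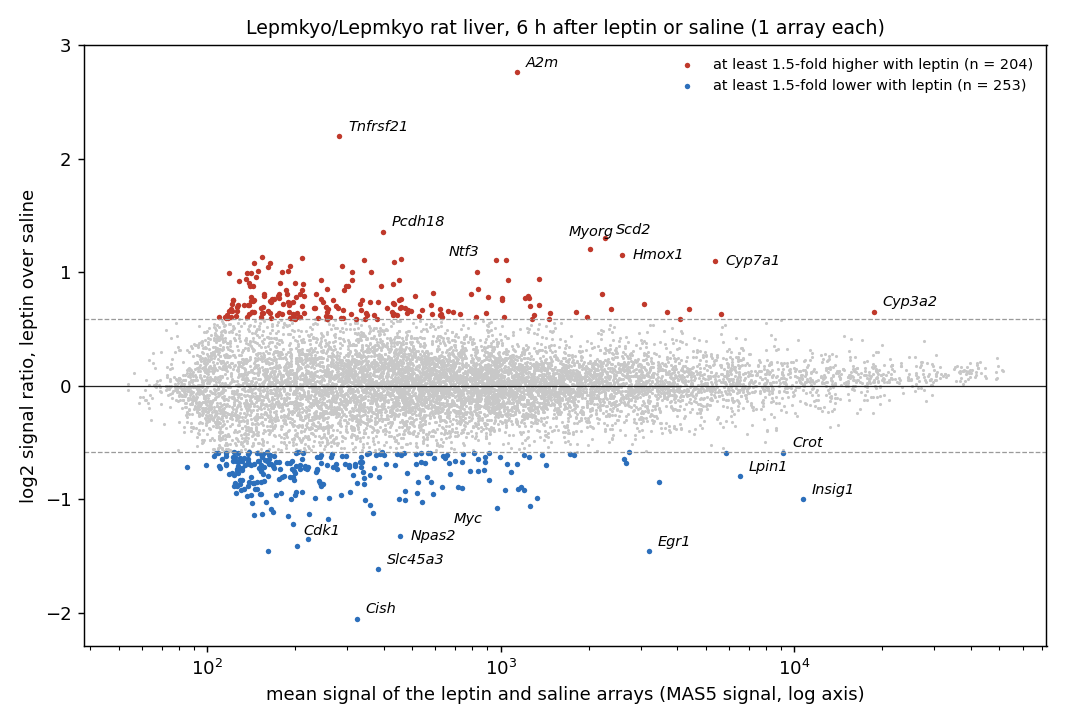
Each point is 1 of 9707 genes in Lepmkyo/Lepmkyo rat liver, with the mean signal of the leptin and saline arrays on a log axis and the log2 ratio of leptin over saline on the other axis. Dashed lines mark 1.5-fold, and the spread of the points narrows toward bright genes, where Cyp7a1, Hmox1 and Scd2 lie above and Egr1 and Insig1 below.

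Among bright genes, the largest ratios upward included genes of bile acid synthesis, heme breakdown and fat desaturation. Cyp7a1, the rate-limiting enzyme of the classic bile acid pathway, had a signal of 7318.2 after leptin, 3419.0 after saline and 3411.3 in WT liver. It was 2.14-fold higher with leptin, and the mutant saline and WT arrays lay side by side. Hmox1, which degrades heme, had 3563.6 after leptin, 1606.5 after saline and 902.1 in WT liver, 2.22-fold higher with leptin. Scd2, a stearoyl-CoA desaturase isoform, had 3233.1 after leptin, 1312.6 after saline and 624.0 in WT liver, a difference of 2.46-fold on a probe set that may read several transcripts of the gene. For both genes the leptin array was the highest of the 3 and the WT array the lowest. Myorg, a glycosidase family member, had 2818.8 after leptin, 1223.4 after saline and 1591.3 in WT liver, 2.30-fold higher. Nampt, which makes NAD from nicotinamide, had 2813.0 after leptin, 1608.4 after saline and 2329.5 in WT liver, 1.75-fold higher, with a second probe set also higher at a log2 ratio of 0.43. Cyp3a2, a male-biased drug-metabolizing enzyme, was the brightest of all 204, at 22835.4 after leptin, 14540.9 after saline and 16410.2 in WT liver. Cyp7a1, Hmox1, Scd2 and Cyp3a2 were each read by 1 measured probe set, so no other probe set could check their ratios.

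Of the 5 bright genes with the largest ratios downward, 3 act in early transcription or in lipid regulation. Egr1, an immediate early transcription factor, had 1707.9 after leptin, 4702.4 after saline and 1996.2 in WT liver. It was 2.75-fold lower with leptin, and the leptin array was near the WT array. Insig1, which holds the sterol sensor of the SREBP pathway in the endoplasmic reticulum, had 7115.9 after leptin, 14251.0 after saline and 9564.9 in WT liver, 2.0-fold lower. Lpin1, a phosphatidate phosphatase that also acts as a coactivator in fasting, had 4763.5 after leptin, 8282.9 after saline and 4933.3 in WT liver, 1.74-fold lower. Its second probe set had a log2 ratio of -0.46. For all 3 genes the saline array of the mutant stood highest. Zfp354a, a zinc finger repressor, was 1.80-fold lower at 2477.6 after leptin and 4460.3 after saline, and Pnrc1, a nuclear receptor coactivator, was 1.60-fold lower. Egr1, Insig1, Zfp354a and Pnrc1 were each read by 1 measured probe set.

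**Figure D2:**
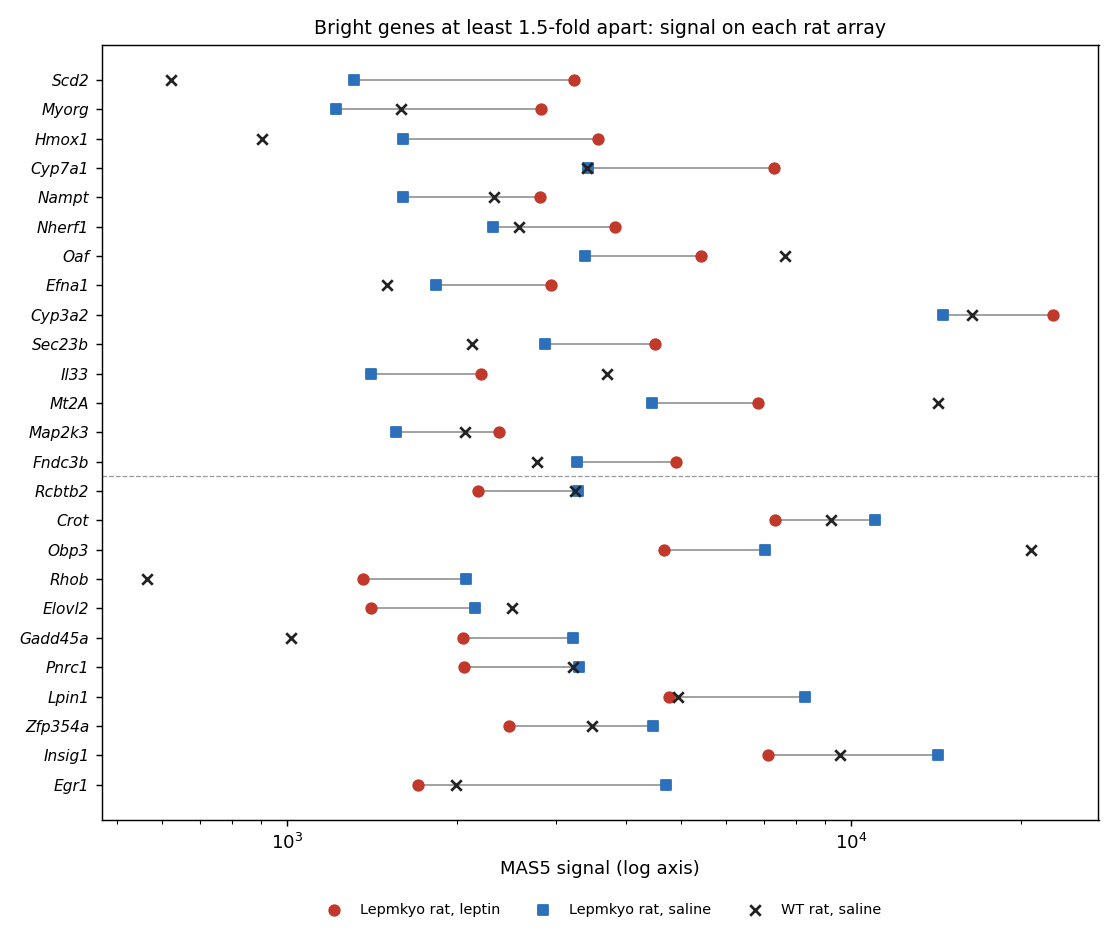
Signals of the 25 genes of the brightest group that were at least 1.5-fold apart, with 1 point per array on a log axis (circles leptin, squares saline, crosses WT saline), ordered by the ratio of leptin over saline. The 14 genes above the dashed line were higher with leptin and the 11 below it lower.

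The WT array stood on either side of the mutant arrays. Leptin and WT signals are both read here against the same mutant saline array, so a value of that array that is off by itself moves the distance to both. No count of genes between mutant and WT levels is given for that reason.

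The largest ratios over all brightness levels fell on genes with less signal. A2m, a plasma protease inhibitor that is a classic acute phase protein in rats and a STAT3 target there, had 1980.8 after leptin, 291.8 after saline and 114.5 in WT liver. At 6.79-fold it had the largest ratio of all 9707 genes, and it was read by 1 probe set. Tnfrsf21, the death receptor DR6, had 462.4 after leptin, 100.8 after saline and 85.7 in WT liver, 4.59-fold higher. Its second probe set had 426.9 after leptin, and 31.4 after saline and 7.0 in WT liver, both under the floor, so it was at least 4.4-fold higher. The leptin array alone carried clear Tnfrsf21 signal on both. Pcdh18, a protocadherin, was 2.56-fold higher, with 571.1 after leptin and 223.1 after saline. Ntf3, the growth factor neurotrophin-3, was 2.16-fold higher, with 1318.0 after leptin and 611.1 after saline, and the WT value of 602.1 was close to saline. Lmo7, a LIM domain protein, was 2.17-fold higher on 1 probe set and not on the other, whose log2 ratio was -0.09. Lin7a, a scaffold protein of cell junctions, was 2.16-fold higher.

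Cish had the largest ratio downward. It encodes a feedback inhibitor of cytokine receptors that STAT5 induces after growth hormone. Its brighter probe set had 125.6 after leptin, 522.0 after saline and 323.0 in WT liver, 4.16-fold lower. Its other probe set had 44.9 after leptin, 112.6 after saline and 248.0 in WT liver, at least 1.16-fold lower. Both were lower on the leptin array, but the WT array lay between the mutant arrays on the first and above them on the second. Slc45a3, a membrane transporter, was 3.07-fold lower at 188.3 after leptin and 578.0 after saline, and Npas2, a partner of the clock factor BMAL1, was 2.51-fold lower at 259.3 after leptin and 650.5 after saline. Cib2, Pttg1, Cdk1, Asb5, Cdkn3 and Ucp2 completed the 10 largest downward ratios among genes with both arrays above the floor, between 2.66-fold and 2.19-fold. Their leptin signals were 110.3 to 159.1, just above the floor.

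Several probe sets for the same gene give an internal check on 1 pair of arrays, though not on the animals. For 2243 genes with several measured probe sets, the pooled standard deviation of log2 ratios within a gene was 0.25, from 0.309 in the dimmest group of genes to 0.194 in the brightest. It was thus nearly as wide as the standard deviation of all ratios. The second-brightest probe set lay on the same side as the brightest for 24 of 38 genes at 1.5-fold higher (63.2%) and for 36 of 47 at 1.5-fold lower (76.6%). Over all 2243 genes the share was 58.7%. The second probe set was itself 1.5-fold the same way for 6 of the 38 and 12 of the 47, and 1.5-fold the opposite way for 0 of either group.

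In 10 genes of 2106 with a brightest signal of at least 2 times the floor, every measured probe set was at least 1.5-fold apart in 1 direction, 6 higher (0.285%) and 4 lower (0.19%). The 6 higher genes were Tnfrsf21, Heatr6, Myorg, Fam117b, Efna1 and Rrp12. Efna1, a membrane-bound ligand of Eph receptors, was the brightest of them. It had 2933.3 after leptin, 1835.1 after saline and 1504.8 in WT liver on 1 probe set, and 1801.4, 957.8 and 1277.9 in the same order on the other. Fam117b had 1266.7 after leptin and 751.3 after saline on its brighter probe set, and 673.3 after leptin and 368.4 after saline on the other. Heatr6 was 1.90-fold and 2.21-fold higher, and Rrp12, a factor of ribosomal subunit export, 1.66-fold and 1.62-fold. Every one of these probe sets read higher on the leptin array than on either saline array.

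The 4 lower genes were Crot, Tns1, Lrrfip1 and Rsbn1. Crot, the peroxisomal carnitine octanoyltransferase, had 7325.5 after leptin, 11024.2 after saline and 9200.7 in WT liver on its brighter probe set. On the other it had 1119.3 after leptin, 1718.6 after saline and 2788.1 in WT liver. The 2 probe sets were 1.51-fold and 1.54-fold lower with leptin but placed the WT array differently. Lrrfip1, a nucleic acid-binding regulator, was 1.62-fold and 1.73-fold lower, and Tns1, a focal adhesion protein, 1.52-fold and 1.54-fold. Rsbn1 was 1.64-fold lower, and at least 1.77-fold on its second probe set, at 87.4 after leptin and 171.9 after saline. Rsbn1, like Rrp12 above, lies in the dimmest group. Crot was under 1.5-fold when the arrays were centred on their median, and Tns1 was under it then and after quantile normalization.

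Among the same 2106 genes, all measured probe sets were above 1 for 542 and below 1 for 572, at any size. Agreement in side alone says little, as the second probe set lay on the same side for 58.7% of genes in general. Nop56, a core protein of the particles that modify ribosomal RNA, had 1281.9 after leptin, 922.1 after saline and 937.8 in WT liver, 1.39-fold higher, and its second probe set was 1.86-fold higher. Klf9, a transcription factor that glucocorticoids induce, had 4655.0 after leptin, 6820.1 after saline and 7371.3 in WT liver, 1.47-fold lower, and its second probe set was 1.71-fold lower. Cldn1, a tight junction protein, had 495.1 after leptin, 847.1 after saline and 1346.3 in WT liver, 1.71-fold lower, and its 3 probe sets had log2 ratios from -1.52 to -0.35. In Klf9 and Cldn1 the leptin array was the lowest of the 3 and the WT array the highest.

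**Figure D3:**
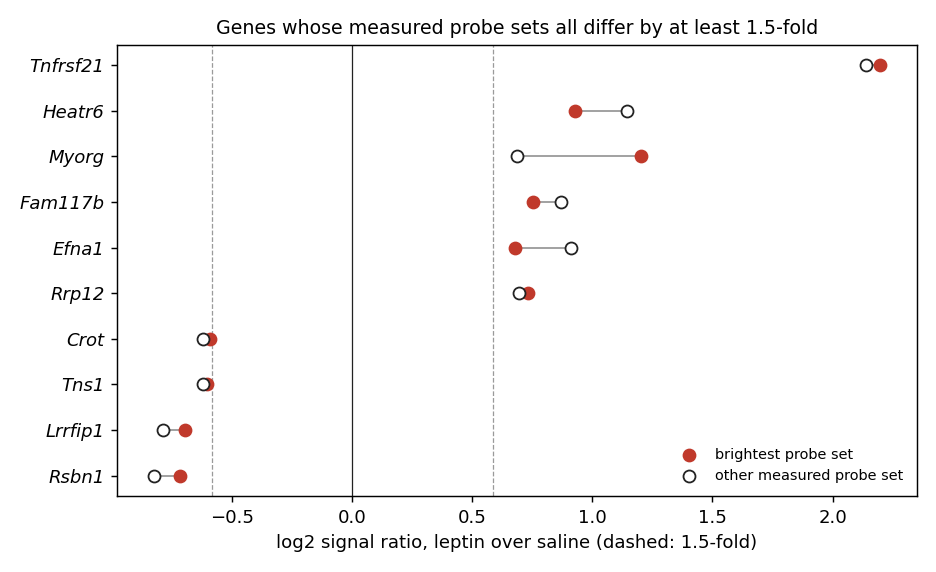
The log2 ratio of leptin over saline for each measured probe set of the 10 genes whose probe sets were all at least 1.5-fold apart in the same direction. Filled points are the brightest probe set of a gene and open points the other one. Tnfrsf21 stands out at ratios of 2.20 and 2.14. The second of these and the open point of Rsbn1 are bounds, as 1 array was under the floor.

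Among core genes of the leptin pathway, Lepr was close to its saline level, and Lep and Socs3 were too dim to read. Stat3 was higher on its 2 probe sets, and Jak2 is described below. Lep had signals of 3.1 after leptin, 6.0 after saline and 4.0 in WT liver, all under the floor. Leptin is made by adipose tissue, and these liver values give no check of the mutation. Lepr had 512.9 after leptin, 538.7 after saline and 429.2 in WT liver, and its 4 measured probe sets had log2 ratios from -0.34 to 0.26. Socs3, the usual early readout of leptin and interleukin-6 signalling, had 94.4 after leptin, 80.8 after saline and 123.1 in WT liver. Only the WT array reached the floor, so no ratio could be read. Stat3, which induces its own transcript, had 3069.8 after leptin, 2280.8 after saline and 2669.6 in WT liver, 1.35-fold higher. Its second probe set had 1260.1 after leptin, 787.9 after saline and 521.0 in WT liver, 1.60-fold higher.

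Of 25 measured genes that carry leptin, insulin or growth hormone signals, 1 was 1.5-fold higher and 4 were 1.5-fold lower, with a median log2 ratio of 0.01. Over all genes 2.1% were 1.5-fold higher and 2.61% lower, and these shares are the reference for each list below. Ptpn2, a phosphatase that acts on JAK and STAT proteins, was 1.5-fold higher at 1755.1 after leptin, 1169.4 after saline and 906.1 in WT liver. The lower genes were Cish, Foxo1, Igfbp2 and Jak2. Igfbp2 and Jak2 lie in the dimmest group, where 143 of 2428 genes were 1.5-fold lower. Foxo1, a fasting transcription factor that insulin inactivates, had 210.8 after leptin, 402.7 after saline and 397.6 in WT liver, 1.91-fold lower. Igfbp2, a binding protein of insulin-like growth factors that leptin raises in mouse liver, had 178.0 after leptin, 297.3 after saline and 1952.8 in WT liver. It was 1.67-fold lower with leptin at 6 h, and both mutant arrays were far under WT. Jak2 was at least 1.77-fold lower, at 91.3 after leptin, 172.1 after saline and 113.8 in WT liver. Igfbp1 had a log2 ratio of -0.38, Igf1 of 0.06 and Irs2 of -0.03.

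More early response genes were lower than higher. Of 33 measured immediate early genes and STAT3 targets, 6 were 1.5-fold lower and 1 was higher, beside 2.61% and 2.1% of all genes. The median log2 ratio of the list was -0.17, and 10 were above 0. Egr1 is described above. Myc, a growth-promoting transcription factor, had 626.4 after leptin, 1323.0 after saline and 395.3 in WT liver, 2.11-fold lower. Atf3, a stress-induced factor, had 312.9 after leptin, 629.4 after saline and 157.5 in WT liver, 2.01-fold lower. Tnfaip3, an inhibitor of NF-kappa-B signalling, had 797.2 after leptin, 1496.6 after saline and 418.2 in WT liver. In these 3 genes the saline array of the mutant was the highest and WT the lowest. Ier2 had 713.5 after leptin, 1350.7 after saline and 1079.6 in WT liver, and Gadd45a, a growth arrest gene, 2051.7, 3220.1 and 1017.5 in the same order. Bcl6, a repressor that STAT3 and STAT5 regulate in opposite ways, was the 1 member that was 1.5-fold higher. It had 1147.0 after leptin, 669.4 after saline and 655.0 in WT liver, 1.71-fold higher. Next among the 10 members above 0 were Gadd45b and Ccn1, at log2 ratios of 0.53 and 0.52.

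Acute phase proteins other than A2m differed little. Of 27 measured, 25 had ratios above 0 and A2m alone was 1.5-fold higher, and the median log2 ratio was 0.17. Lbp, which binds bacterial lipopolysaccharide, had 3672.4 after leptin, 2646.1 after saline and 2406.4 in WT liver, 1.39-fold higher. Hamp, the iron hormone hepcidin, had 22430.1 after leptin, 17452.6 after saline and 28717.1 in WT liver, 1.29-fold higher. Il6r and Il1rn were the 2 members below 0, at log2 ratios of -0.45 and -0.48. Very bright genes in general leaned the same way: 328 of the 415 genes with a mean signal of at least 10000 were above 0, with a median of 0.07, and all 17 hepatocyte markers were above 0, with a median of 0.11. After quantile normalization these medians were 0.00 and 0.02, and the acute phase median was 0.06. The 29 ribosomal protein genes, of which 28 were above 0, shared this lean, with a median of 0.08 that was 0.02 after quantile normalization.

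Most genes of fat synthesis were near their saline level. Of 35 measured genes of lipogenesis and triglyceride synthesis, 2 were 1.5-fold higher and 4 lower, beside 2.1% and 2.61% of all genes. The median log2 ratio was 0.02, and -0.04 after quantile normalization. Fasn, fatty acid synthase, had 22150.2 after leptin, 20666.7 after saline and 4297.7 in WT liver. Scd, the main desaturase, had 38705.1 after leptin, 37518.5 after saline and 17586.2 in WT liver. Srebf1, the transcription factor that drives both, had 6377.3 after leptin, 5788.9 after saline and 3076.6 in WT liver. At 6 h the leptin and saline arrays were thus within 1.11-fold for these 3 genes, and both were above WT on these probe sets. The second, dimmer probe set of Srebf1 had 835.9 after leptin, 788.1 after saline and 837.1 in WT liver. It did not place the mutant arrays above WT. Beside Scd2, Lpin3 was higher, at 507.1 after leptin and 276.2 after saline. The lower genes were Lpin1, Gpam, Acsl3 and Elovl2. Gpam, the first acyltransferase of triglyceride synthesis, was 1.81-fold lower, at 231.2 after leptin, 418.5 after saline and 150.0 in WT liver.

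Among sterol genes, both INSIG regulators were lower. Insig1 was 2.0-fold lower, and Insig2, its close relative, had 7380.8 after leptin, 10938.2 after saline and 12096.5 in WT liver, 1.48-fold lower with a second probe set 1.34-fold lower. Of 24 measured genes of cholesterol synthesis and uptake, Insig1 alone passed 1.5-fold in either direction. The median was 0.07. Mvk, mevalonate kinase, had 751.5 after leptin, 562.4 after saline and 562.2 in WT liver, 1.34-fold higher. In bile acid synthesis and transport, Cyp7a1 alone of 26 measured genes was 1.5-fold apart, and the median was -0.03, or 0.03 with the arrays centred. Nr0b2, the repressor SHP that restrains Cyp7a1, had 1907.5 after leptin, 2390.0 after saline and 2894.8 in WT liver, 1.25-fold lower. The bile salt and phospholipid pumps Abcb11 and Abcb4 had log2 ratios of -0.37 and -0.41.

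The few genes of fasting and fatty acid oxidation that passed 1.5-fold were all lower, where 2.61% of all genes were that much lower. Ppargc1a, Ppargc1b and Ucp2 among them lie in the dimmest group, where 143 of 2428 genes were 1.5-fold lower. Of 26 measured genes of gluconeogenesis and the fasting response, 4 were 1.5-fold lower and 0 higher, with a median log2 ratio of -0.18. Ppargc1a, the coactivator PGC-1-alpha that switches on oxidation and gluconeogenesis, had 128.5 after leptin, 257.1 after saline and 300.1 in WT liver. Its second probe set had 92.3 after leptin, 210.4 after saline and 273.0 in WT liver, so the brighter one was 2.0-fold lower and the other at least 2.17-fold lower. Foxo1 and Lpin1 are described above. Fkbp5, a chaperone that glucocorticoids induce, was 1.86-fold lower at 517.6 after leptin and 965.0 after saline, but its second probe set had 456.1 after leptin and 459.5 after saline. The enzyme Pck1, phosphoenolpyruvate carboxykinase, had 28479.5 after leptin, 27856.4 after saline and 34058.3 in WT liver.

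Among 39 measured PPARA targets and other fatty acid oxidation genes, 4 were 1.5-fold lower and 0 higher. These were Ucp2, Ppargc1a, Ppargc1b and Crot, and the median of the list was -0.05, or 0.01 with the arrays centred on their median. Ucp2, a mitochondrial carrier, had 139.1 after leptin, 304.3 after saline and 185.7 in WT liver. Cpt1a, the entry step of mitochondrial fat oxidation, had 9446.6 after leptin, 8747.5 after saline and 12576.2 in WT liver, and Fgf21, a fasting hormone, 1597.9, 1695.3 and 555.2 in the same order. Among 19 lipid droplet genes the median was -0.20 and 15 were below 0. Plin5, a droplet coat protein, was at least 1.88-fold lower, at 84.8 after leptin, 182.4 after saline and 169.1 in WT liver. Fabp4, a fatty acid carrier of fat cells and macrophages, had 503.9 after leptin, 784.8 after saline and 57.7 in WT liver, 1.56-fold lower. No member of this list was 1.5-fold higher.

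Of 5 measured clock genes of the BMAL1 phase, 3 were 1.5-fold lower and 0 higher, with a list median of -0.66. Bmal1 and Rora among them lie in the dimmest group, where 143 of 2428 genes were 1.5-fold lower. Npas2 had 259.3 after leptin, 650.5 after saline and 465.4 in WT liver, and Bmal1, the core activator of the clock, had 113.6 after leptin, 195.4 after saline and 346.5 in WT liver, 1.72-fold lower. Rora, an activator of Bmal1, was 1.59-fold lower at 123.5 after leptin and 195.8 after saline. Clock, the main partner of BMAL1, had 748.4 after leptin, 1030.0 after saline and 1026.7 in WT liver, a log2 ratio of -0.46, and its other probe sets had -0.17 and -0.16. Nfil3, a repressor of the same phase, was at 1027.8 after leptin and 903.5 after saline. In the opposite phase, that of PER and DBP, 15 measured genes had a median of 0.00. Per2, a clock repressor, was 1.56-fold higher at 1089.4 after leptin, 697.3 after saline and 474.5 in WT liver. Nr1d1, the repressor REV-ERB-alpha, was 1.52-fold lower at 408.6 after leptin, 619.7 after saline and 312.3 in WT liver. The labels give the time since injection and no clock time of sampling.

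Cell cycle genes were the list with the most members past 1.5-fold. Of 29 measured, 9 were lower, 1 was higher and 22 were below 0, with a median of -0.38. The 9 were Cdk1, Cdkn3, Mki67, Ccnb1, Top2a, Cdkn1a, Prc1, Stmn1 and Cdc20, and the higher one was Mcm4. Cdk1, the kinase that starts mitosis, had 117.5 after leptin, 274.1 after saline and 70.7 in WT liver, 2.33-fold lower. Mki67, the proliferation marker Ki-67, had 82.8 after leptin, 190.8 after saline and 51.0 in WT liver, at least 1.97-fold lower. Ccnb1, cyclin B1, had 64.8 after leptin, 187.0 after saline and 77.2 in WT liver, at least 1.93-fold lower, and its second probe set was at least 1.90-fold lower. In these 3 genes the mutant saline array was the highest, and the other 2 arrays were near or under the floor. Of the 2 mutant arrays, only saline reached the floor for Mki67, Ccnb1 and Prc1. Prc1 had 82.4 after leptin and 176.5 after saline, so its ratio is a bound too. Cdkn1a, the inhibitor p21, had 501.8 after leptin, 930.8 after saline and 804.1 in WT liver, and Mcm4, a helicase subunit, 355.8, 224.1 and 232.2 in the same order. Apart from Cdkn1a and Stmn1, the lower genes lie in the dimmest group, where 143 of 2428 genes were 1.5-fold lower.

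Bulk liver RNA cannot tell fewer cells of a type from less RNA per cell. The summed signal of 24 measured stellate cell and matrix markers was 43121 after leptin, 39798 after saline and 30185 in WT liver. Fibronectin (Fn1) alone had 22869.5 after leptin and 19408.4 after saline, a larger difference than that of the sum. The median log2 ratio of these markers was -0.03, with 14 of the 24 below 0 and 10 above. Fbn1, a microfibril protein, was 1.51-fold lower. Bgn, the largest ratio upward, was 1.42-fold higher, at 1459.3 after leptin and 1030.0 after saline. For 19 Kupffer cell and macrophage markers the sum was 37527, 36436 and 26795 in the same order, with a median of 0.10 and 13 above 0. For 9 lymphocyte markers it was 6044, 5462 and 4140, of which Cd74 alone had 4592.1 after leptin and 3961.3 after saline. The lymphocyte median was -0.25, with 5 of the 9 below 0 and 4 above. Il2rg, a cytokine receptor chain, was 1.53-fold lower, at 133.9 after leptin and 205.3 after saline. Lck, the largest ratio upward, was 1.48-fold higher, at 207.5 after leptin and 140.6 after saline. The T and B cell markers Cd3d, Cd3e, Cd8a and Ms4a1 were under the floor on both mutant arrays. For 16 endothelial markers the sum was 15576 after leptin, 13782 after saline and 10667 in WT liver, with a median log2 ratio of 0.26 and 13 members above 0. Nostrin, which traffics nitric oxide synthase in endothelium, was the 1 marker of these cells past 1.5-fold, at 1073.1 after leptin, 595.6 after saline and 921.7 in WT liver. Of 12 neutrophil markers on the array 4 were measured, and their sum was 764 after leptin, 641 after saline and 366 in WT liver. The part of any shift in cell makeup in the lists above was not tested.

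Growth hormone dependent genes lay on both sides. Of 23 measured sex and growth hormone dependent liver genes, 4 were 1.5-fold higher and 2 lower. Cux2, a repressor that is female-biased in rodent liver, had 287.8 after leptin, 131.7 after saline and 639.0 in WT liver, 2.19-fold higher, and its second probe set was 1.22-fold higher. Stac3 had 1567.9 after leptin, 905.5 after saline and 2130.0 in WT liver, 1.73-fold higher. Cyp3a2 and Bcl6 were the other two higher genes, and Cish and Obp3, a male-biased carrier protein, were lower. Obp3 had 4658.7 after leptin, 7050.8 after saline and 20879.9 in WT liver.

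Chaperone genes leaned upward by small amounts, while genes of amino acid stress lay on both sides. Of 32 measured genes of endoplasmic reticulum and amino acid stress, 26 were above 0, with a median of 0.16 that was 0.14 after quantile normalization. Manf, a secreted chaperone of the endoplasmic reticulum, had 9545.5 after leptin, 6501.5 after saline and 7349.1 in WT liver, 1.47-fold higher, and Dnajb11, a co-chaperone of BiP, was 1.37-fold higher. Chac1, an ATF4 target that degrades glutathione, was the 1 member past 1.5-fold, and it was lower, at 414.1 after leptin, 748.0 after saline and 327.7 in WT liver. Sesn2, Nupr1 and Trib3 were also among the 6 members below 0, at log2 ratios of -0.43, -0.39 and -0.39. Asns, Ddit3 and Atf4 were above 0, at 0.35, 0.17 and 0.13. Among 22 heat shock chaperones 18 were above 0, and Stip1 alone was 1.5-fold higher. Hsph1 was 1.45-fold and 1.60-fold higher on its 2 probe sets, with 2799.0 after leptin, 1932.7 after saline and 3656.5 in WT liver on the brighter. Beside Hmox1, the oxidative stress genes Nqo1, a quinone reductase, and Mt2A, a metallothionein, were 1.71-fold and 1.55-fold higher. These were 3 higher genes and 0 lower of 24 measured NRF2 targets, oxidative stress genes and metallothioneins, around a median of 0.05.

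**Figure D4:**
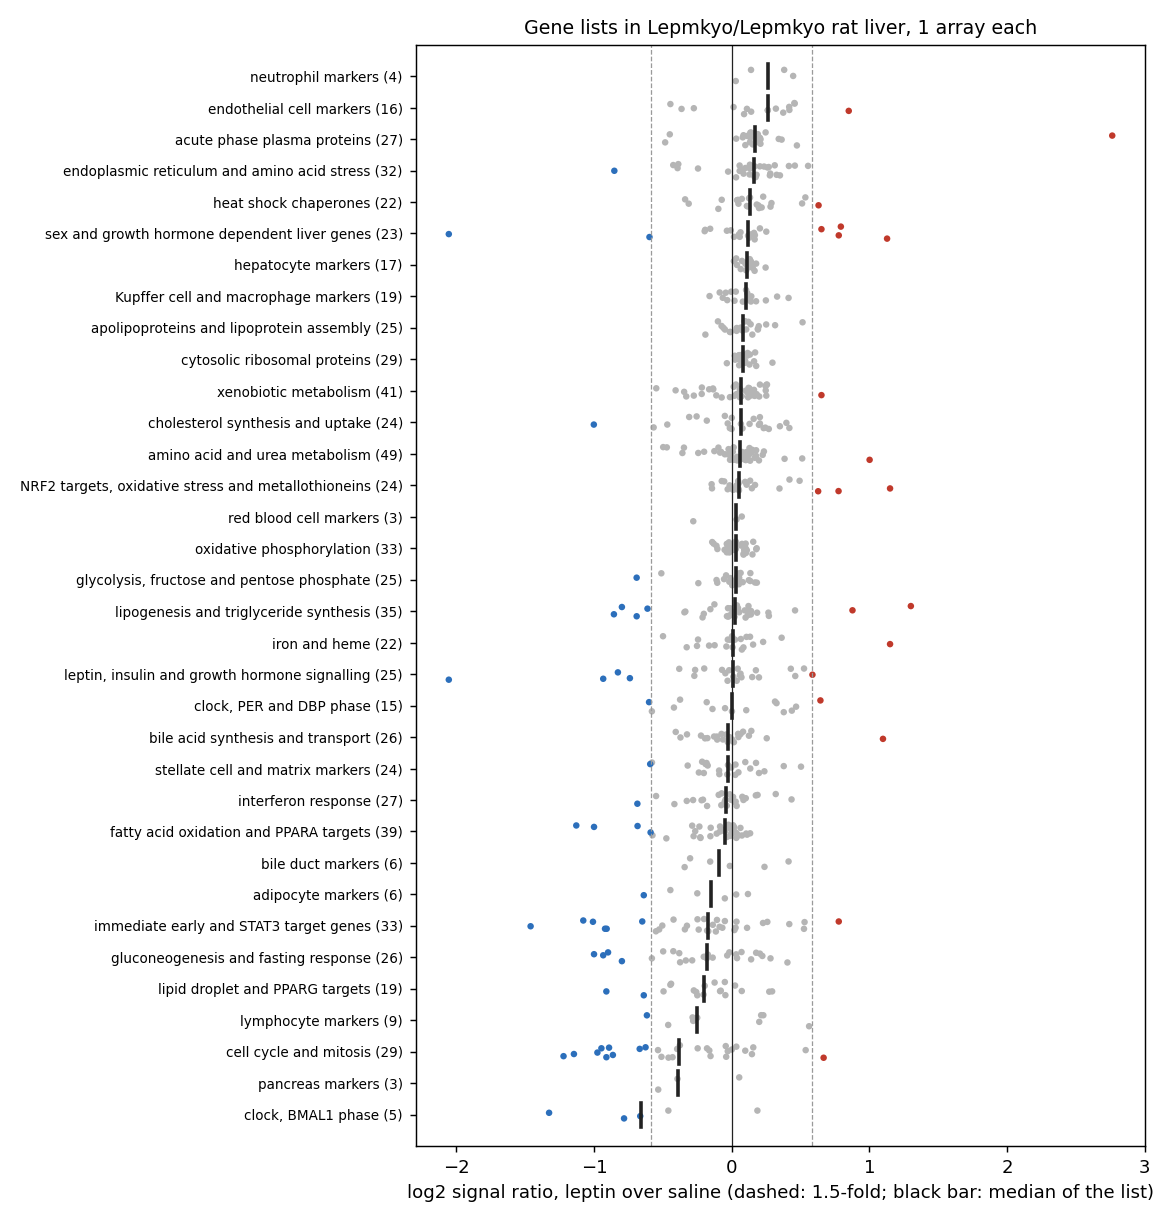
The log2 ratio of leptin over saline for each measured member of 34 gene lists, with the number measured in brackets and the list median as a black bar. Members at least 1.5-fold higher are red and those 1.5-fold lower blue; the medians run from 0.26 for neutrophil and endothelial markers to -0.66 for the BMAL1 phase of the clock.

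In Lepob/Lepob mice, whose 2 arrays share nothing with the rat arrays, 251 of 11554 genes (2.17%) were 1.5-fold higher and 254 (2.2%) lower 6 h after leptin. By identical symbol 8219 genes were measured in both species. Of 161 rat genes that were 1.5-fold higher, 86 were above 1 in the mouse (53.4%), and of 194 that were lower, 108 were below 1 (55.7%), beside 54.0% on the same side over all 8219 genes. These shares were close to that of genes in general. Across genes, which are not independent replicates, Pearson's r was 0.088 and Spearman's rho 0.085.

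A small set passed 1.5-fold in both species. It held 10 higher genes, 6.21% of the rat list and 8.13% of the 123 mouse genes, where 1.5% of all shared genes were that much higher in the mouse. It held 15 lower genes, 7.73% of the rat list and 11.03% of the 136 mouse genes, where 1.65% of all were that much lower. Egr1 had 814.1 after leptin and 1347.9 after saline in mice, 1.66-fold lower. Myc had 159.8 after leptin and 269.1 after saline in mice, 1.68-fold lower, and its family member Mycl was 2.08-fold lower in rats and 1.63-fold in mice. Nr1d1 had 89.3 after leptin and 195.4 after saline in mice, 2.19-fold lower. Tnfrsf12a, the receptor of the cytokine TWEAK, was 1.53-fold lower in rats and 1.56-fold in mice. Among the higher genes was Cux2, at 314.8 after leptin and 207.0 after saline in mice. Polr1b, a subunit of RNA polymerase I, was 1.57-fold higher in rats and 1.99-fold in mice. Pcdh18 had 135.4 after leptin and 56.0 after saline in mice, the latter under the floor, so it was at least 1.64-fold higher. Ratios of Cdca3, Cxcl13 and Gipc2 in rats, Ptpn23 in mice and Zfp9 in both species are likewise bounds, with 1 array under the floor.

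Most of the largest rat ratios with a mouse value were not matched at 1.5-fold. A2m, Ntf3, Cib2, Npas2, Asb5, Cdkn3 and Ucp2 had no measured mouse value under the same symbol, so they could not be compared. Tnfrsf21 had 211.9 after leptin and 203.3 after saline in mice, Hmox1 638.1 after leptin and 680.0 after saline, and Scd2 523.1 after leptin and 625.5 after saline. Cyp7a1 was 1.24-fold higher in mice, at 3222.2 after leptin and 2602.5 after saline. Insig1 had 2464.3 after leptin and 2082.8 after saline in mice, and Igfbp2 had 1465.6 after leptin and 1045.2 after saline, 1.40-fold higher. Cish was 1.44-fold lower in mice, at 414.7 after leptin and 598.4 after saline, and Slc45a3 was 1.36-fold lower, at 463.3 and 631.3. Among the lists, immediate early genes had a median of -0.18 in mice with 9 of 36 members 1.5-fold lower, close to the rat's -0.17, while cell cycle genes had -0.03. The difference between species in any of these ratios was not tested.

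**Figure D5:**
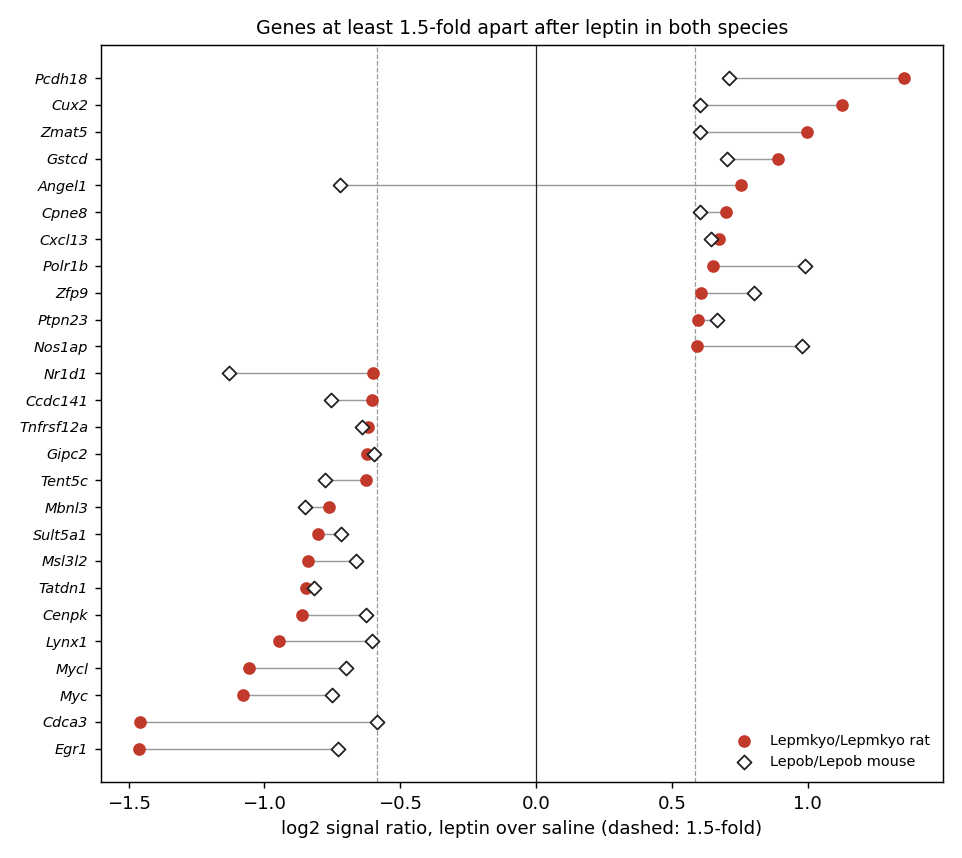
The 26 genes that were at least 1.5-fold apart after leptin in both species, with the log2 ratio of leptin over saline in Lepmkyo/Lepmkyo rats (filled circles) and Lepob/Lepob mice (open diamonds). Of these, 10 were higher in both, 15 lower in both, and Angel1 was higher in rats at 0.76 and lower in mice at -0.72. Points for Cdca3, Cxcl13 and Gipc2 in rats, Pcdh18 and Ptpn23 in mice and Zfp9 in both are bounds, with 1 array under the floor.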

How the data were processed

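Total RNA was extracted with Trizol and labelled by the standard Affymetrix protocol, per the labels. The deposited signal intensities are linear and come from MAS5 (version not stated), per the submitters' processing notes. That method scales arrays to the same trimmed mean, so ratios are relative to the whole array, and its dim signals are noisy. Detection calls were not used here.

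Values were used as deposited. Symbols came from the platform annotation, leaving out 436 rat probe sets with several symbols and 9780 with none. A gene was its probe set with the highest mean of the leptin and saline arrays. Values were floored at the platform median (97.0 in rats, 82.7 in mice) and log2 ratios taken, at thresholds of 2-fold and 1.5-fold. With 1 array per group no test was run. The number of arrays limits the precision. The calculations were tested on simulated data.

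Named genes were the 12 largest agreeing ratios per direction, the 10 largest with both arrays above the floor, the 5 largest in the brightest of 4 signal groups, up to 4 members of each of 24 pathway and 10 marker lists, members running the opposite way, and fixed genes such as Lep, Lepr, Socs3 and Stat3. The members, lists and rules were chosen with earlier results of these data known. G6pc had no measured rat value. Alternatives were quantile normalization, centring on the median, other floors, the median over probe sets, omitting probe sets with several possible targets, and log2(signal + 1). Python 3.11.15, numpy 2.4.6, pandas 2.3.3 and matplotlib 3.10.9 were used.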

Additional observations from a re-analysis of the deposited data

Results flagged for a closer look

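Angel1 was 1.5-fold apart in opposite directions in the 2 species. Its log2 ratio was 0.76 in rats, with signals of 566.1 after leptin and 335.1 after saline, and -0.72 in mice, with 111.7 after leptin and 184.4 after saline. All 4 signals were above the floors. Each ratio rests on 1 pair of arrays, and the difference between species was not tested.

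Probe sets without a single symbol, which no comparison above used, held further large ratios. Of 3600 such rat probe sets that were measured, 7 were higher and 12 lower by 2-fold or more with both arrays above the floor. The highest ratio was that of a probe set with 560.0 after leptin, 149.2 after saline and 48.6 in WT liver, and the lowest that of a probe set with 284.6, 1652.9 and 730.3 in the same order, 5.81-fold lower with leptin. Their genes are not named here.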

How the results depend on the processing

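No paired analysis was possible because each group held 1 array, and leaving out a replicate was not possible for the same reason. Of the named genes past 1.5-fold, 0 changed sign under the 7 alternatives. List medians near 0 did: lipogenesis was -0.04 and the signalling list -0.02 after quantile normalization. With centring, fatty acid oxidation was 0.01, bile acid genes 0.03, interferon genes 0.02 and stellate cell markers 0.03, and the balance at 1.5-fold turned to 286 higher and 194 lower. The bile duct median was 0.06 with the median over probe sets, and that of red blood cell markers -0.25 at the low floor. With the floor at the 25th percentile, a signal of 28, 221 and 289 genes were 2-fold higher and lower, 774 and 987 were 1.5-fold higher and lower, and 20 and 31 genes had several probe sets that all agreed at 1.5-fold. At the 75th percentile (452.7) these counts were 8 and 4, 47 and 55, and 1 and 2, and the mouse counts at 1.5-fold were 29 and 29. With log2(signal + 1) and no floor they were 72 and 103, and 314 and 399, with 8 genes agreeing on lower. A lower floor admits more dim genes. Quantile normalization, centring, the median over probe sets and leaving out probe sets with several targets moved the rat counts by less than 1.5 times. Of 69 named genes at 1.5-fold, 26 passed it under every alternative. Under quantile normalization 66 did, without Fbn1, Il2rg and Tns1. Under centring 63 did, without these and Crot, Fabp4 and Nr1d1. With the median over probe sets Fbn1, Fkbp5 and Lmo7 were under 1.5-fold. At the high floor 44 were still measured and 33 passed, and Npas2, Cish, Tnfrsf21, Pcdh18, Slc45a3 and Atf3 did not.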

Other observations

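Other genes past 2-fold, chosen after their values were seen, fall outside the lists. Srm, which makes the polyamine spermidine, had 1425.2 after leptin, 662.2 after saline and 736.6 in WT liver. Nat8, an acetyltransferase, had 589.4 after leptin, 276.4 after saline and 928.1 in WT liver. Mdn1 and Exosc2, which act in ribosome assembly and RNA processing, were 2.0-fold and at least 2.12-fold higher. On the lower side, Chka, the first enzyme of phosphatidylcholine synthesis, had 814.9 after leptin, 1704.1 after saline and 1351.6 in WT liver. Inmt, a methyltransferase, had 355.1 after leptin, 723.2 after saline and 1537.3 in WT liver. Sult2b1, a cholesterol sulfotransferase, had 228.5 after leptin, 460.4 after saline and 140.1 in WT liver.

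Phgdh, the first enzyme of serine synthesis, was the 1 gene past 1.5-fold among 49 measured genes of amino acid and urea metabolism, at 481.9 after leptin, 240.8 after saline and 5.8 in WT liver. Among 33 oxidative phosphorylation genes 0 were 1.5-fold apart, with log2 ratios from -0.14 to 0.18. Of 41 genes of xenobiotic metabolism Cyp3a2 alone was 1.5-fold apart, and of 27 interferon response genes Rsad2 alone, at 425.3 after leptin, 684.1 after saline and 244.1 in WT liver.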
